A study of Mus musculus with 9 samples.

Results

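The genes of cholesterol (sterol) and fatty acid synthesis were followed in whole mouse kidney. They are 34 listed genes of the 55359 in the deposited count table, found by symbol, and 34 of 34 passed the filter on low counts. A sterol branch holds 18 of them, a fatty acid branch 12, and 4 are regulators or a carrier (Srebf1, Srebf2, Insig1 and Stard4). Kidney RNA was sequenced in 9 libraries, 3 per group. In the NCD vehicle group, mice aged 6 weeks at the start ate a normal calorie diet (NCD) with 11.32% of calories from fat and received vehicle. In the HFD-STZ vehicle group, mice of that age ate a high-fat diet (HFD) with 49.0% of calories from fat, were injected with the beta-cell toxin streptozotocin (STZ, 30 mg/kg) on days 60 and 63, and received vehicle. The HFD-STZ DHZ group had that diet and those injections and was then dosed orally with dehydrozingerone (DHZ), a compound of ginger, at 50 mg/kg for 2 weeks. The sources used here give neither strain nor sex.

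Cells build cholesterol from acetyl-CoA through mevalonate, farnesyl pyrophosphate and squalene to lanosterol, which is then trimmed of methyl groups and rearranged. Fatty acid synthesis draws on the same acetyl-CoA, which is carboxylated, condensed into palmitate, and then elongated and desaturated. The transcription factors SREBP-2 and SREBP-1, encoded by Srebf2 and Srebf1, are the best known activators of the sterol and the fatty acid branch, and Insig proteins hold their precursors in the endoplasmic reticulum when sterols are plentiful. In the kidney the proximal tubule is the most abundant epithelium and lives mainly on fatty acid oxidation.

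Total counts were 15.1 to 47.5 M per library (M, mega), and mitochondrially encoded genes took 39.2% to 60.4% of them. The 34 genes together held between 4304 counts (HFD-STZ vehicle replicate 2) and 56733 (HFD-STZ DHZ replicate 2). Levels below are counts per M counts of a library size scaled by TMM, the trimmed mean of M values (CPM). A count of 0 allows a level of up to 0.0463 CPM (HFD-STZ DHZ replicate 2) to 0.405 CPM (HFD-STZ vehicle replicate 2), from 3 counts and for counting error only. A set of 8 proximal tubule markers summed to 1756 to 3610 CPM in every library, as the kidney label says. Defining enzymes of the adrenal cortex, a fatty and sterol-making neighbour of the kidney, were at or near 0 (Cyp11b2 and Cyp21a1 at 0 in 9 of 9 libraries). The full list of 10 adrenal markers summed to 12.25 to 17.7 CPM, mostly from Star, Scarb1 and Fdx1, the 3 that passed the filter. Libraries stood apart within every group by Y-linked transcripts: the sum of Ddx3y, Uty, Eif2s3y and Kdm5d per M of the total count was 62.1 for replicate 1 of NCD vehicle, 36.5 and 73.0 for replicates 2 and 3 of HFD-STZ vehicle, 106 for replicate 3 of HFD-STZ DHZ, and at most 0.209 for the other 5. In bulk tissue fewer cells of a type and less RNA per cell cannot be told apart.

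Per kilobase of exon, the sterol branch was led by Hmgcs1, the synthase of HMG-CoA, at 36.9 CPM per kb ± 14.2 (mean ± SD over 9 libraries). Cyp51, the demethylase of lanosterol, and Ebp, a sterol isomerase, came next at 13.0 ± 7.49 and 12.4 ± 2.12, which do not differ beyond their spread. Cyp51 lay above Ebp in 4 of the 5 libraries without Y-linked transcripts and below it in the other 5 of 9. At the foot stood Mvk (mevalonate kinase) at 0.350 ± 0.169 and Fdps (farnesyl pyrophosphate synthase) at 0.0974 ± 0.0446. Fdps had 0 to 37 counts per library, overlaps a gene model on its own strand and is treated as uncertain. In the fatty acid branch the mean was highest for Scd1, the stearoyl-CoA desaturase, at 23.6 ± 19.7, and next for Me1, the cytosolic malic enzyme that supplies NADPH, at 10.0 ± 4.98. The order turned with the Y-linked transcripts: Me1 lay above Scd1 in the 4 libraries with them (7.81 against 5.81 CPM per kb in NCD vehicle replicate 1, 16.3 against 3.29 in HFD-STZ DHZ replicate 3) and below it in the 5 without. Elovl6, which elongates palmitate, had 6.60 ± 4.39, and Acaca, the cytosolic acetyl-CoA carboxylase, had the lowest mean at 0.376 ± 0.0790. Standard deviations over the 9 libraries were large beside the mean for Scd1, Elovl6 and Cyp51, whose values are given with the Y-linked transcripts. Lengths are those of the older annotation named under the processing.

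The effect of the compound on diabetic kidneys was measured as HFD-STZ DHZ minus HFD-STZ vehicle. Elovl5, Acly, Sc5d and Hsd17b7 rose, 2 in each branch, and 0 of the 34 genes fell. At an adjusted p below 0.05 (edgeR quasi-likelihood test, adjusted by Benjamini-Hochberg over 17179 genes), 10.0% of all genes were called higher and 12.0% lower, so that 4 of 34 higher is a share close to that of all genes. The median log2 fold change was 0.38 over the 34 genes, 0.37 in the sterol branch and 0.80 in the fatty acid branch, beside 0.04 over all genes tested. With a Y-linked term in the fit the branch medians were 0.32 and 0.57, and that of the sterol branch was 0.24, 0.18 and 0.59 without HFD-STZ vehicle replicate 1, 2 or 3. The median over the 34 genes was 0.18 without replicate 2 and 0.60 without replicate 3. All 3 DHZ libraries lay above all 3 vehicle libraries for 11 of the 34 (5 sterol, 6 fatty acid), beside 20.9% of all genes. The scaling matters here, since library size alone moves the median of all genes to 0.81 and turns all 34 estimates positive. Macrophage and leukocyte markers moved with this comparison, from 10.8 to 22.8 CPM in sum under vehicle to 30.9 to 48.0 under DHZ (3 of 7 tested called higher), and their part in the results was not tested.

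**Figure D1:**
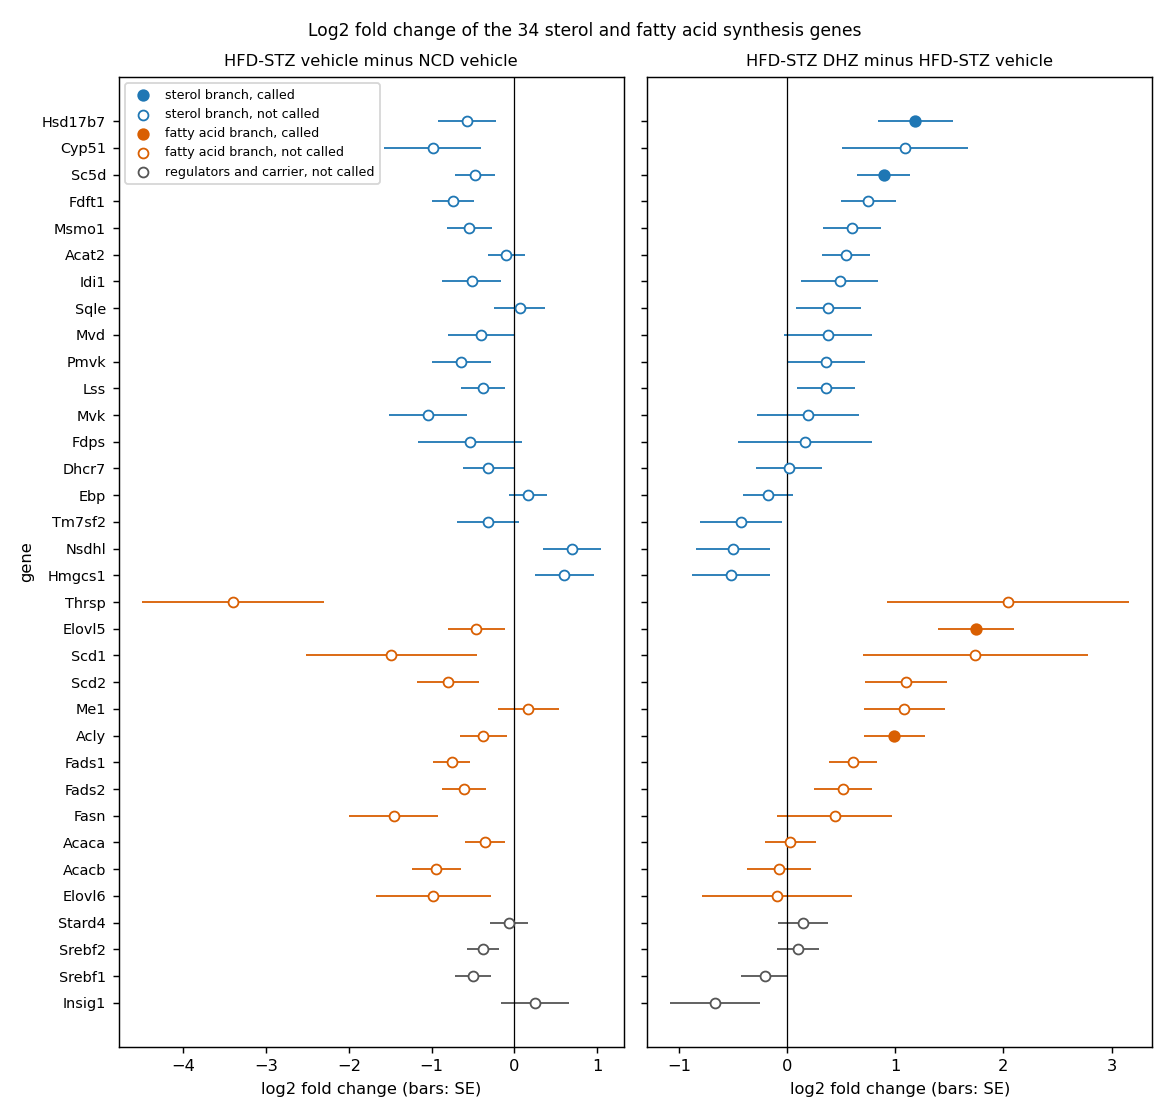
Log2 fold change of each of the 34 genes (x axis, bars are SE) in HFD-STZ vehicle against NCD vehicle (left) and HFD-STZ DHZ against HFD-STZ vehicle (right), with blue for the sterol branch, orange for the fatty acid branch, grey for regulators and carrier, and filled points for genes called. On the left 28 of 34 estimates are below 0 and none is filled; on the right 26 are above 0 and 4 are filled.

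In the sterol branch both called genes act between lanosterol and cholesterol, where the other listed genes were not called. Of those, Cyp51 (1.09), Msmo1 (0.60) and Dhcr7 (0.02) had estimates above 0, and Nsdhl (−0.50), Tm7sf2 (−0.42) and Ebp (−0.18) below it. Hsd17b7, the keto-sterol reductase that completes removal of a methyl group, had 1.19, 0.809 and 1.65 CPM in the vehicle libraries and 2.62, 3.22 and 2.85 under DHZ. The groups did not overlap, and the lowest value rests on 6 counts. The log2 fold change was 1.19 (SE 0.34, adjusted p = 0.029). Sc5d, the desaturase of lathosterol, had 5.20, 4.86 and 6.90 CPM under vehicle and 11.3, 10.7 and 9.80 under DHZ, again without overlap. It rose by 0.89 on the log2 scale (SE 0.24, adjusted p = 0.023).

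Among the other 16 sterol genes estimates ran from −0.52 (Hmgcs1) to 1.09 (Cyp51) and 0 were called. Fdft1, squalene synthase at the branch point to sterols, was nearest with 0.75 (SE 0.26, adjusted p = 0.053). Its values were 5.47, 4.45 and 5.78 CPM under vehicle and 11.0, 9.76 and 5.96 under DHZ, so HFD-STZ DHZ replicate 3 lay at the edge of the vehicle libraries. Fdft1 overlaps Ctsb on the other strand, whose own estimate was 0.51 (adjusted p = 0.15), and the sources used here do not give the strand setting of the counting. Msmo1, the methylsterol monooxygenase, had 3.36, 5.26 and 5.18 CPM under vehicle against 7.61, 7.62 and 5.55, with 0.60 (SE 0.27, adjusted p = 0.12). Acat2, the cytosolic thiolase that opens the pathway, had 6.78, 8.50 and 8.07 against 11.5, 9.78 and 12.7, with 0.55 (SE 0.22, adjusted p = 0.096). The groups of these 3 genes did not overlap, yet none passed the test. Hmgcs1 and Nsdhl, a dehydrogenase of the methyl removal step, had estimates of −0.52 and −0.50 (adjusted p = 0.31 for both), which turn positive by library size alone.

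In the fatty acid branch the largest called change was that of Elovl5, the elongase of polyunsaturated fatty acids. Its levels were 4.88, 5.39 and 6.82 CPM under vehicle and 22.7, 22.2 and 12.9 under DHZ. Each DHZ library lay above each vehicle library, and HFD-STZ DHZ replicate 3 lay between the others and the vehicle group. The log2 fold change was 1.75 (SE 0.35, adjusted p = 0.0076). Acly, ATP citrate lyase, which makes cytosolic acetyl-CoA for both branches, had 9.54, 12.3 and 11.9 CPM under vehicle and 24.6, 26.0 and 16.2 under DHZ. These groups did not overlap either, and Acly rose by 0.99 (SE 0.28, adjusted p = 0.028).

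Several further fatty acid genes came close to the threshold. Me1 had 11.2, 32.2 and 42.9 CPM under vehicle and 55.4, 65.1 and 62.6 under DHZ. The groups did not overlap and the vehicle libraries were widely spread, and the estimate was 1.09 (SE 0.37, adjusted p = 0.056). Scd2, a second stearoyl-CoA desaturase, had 13.8, 7.69 and 12.9 against 33.0, 22.9 and 18.8 CPM, with 1.10 (SE 0.38, adjusted p = 0.056). Fads1, the desaturase that completes arachidonate, had 5.96, 9.85 and 7.34 against 12.2, 13.0 and 9.62, where a vehicle library exceeded a DHZ library, with 0.61 (SE 0.22, adjusted p = 0.066). Neither carboxylase passed the test, with estimates of 0.03 (SE 0.24) for Acaca and −0.08 (SE 0.30) for Acacb (adjusted p = 0.94 and 0.88), of which the latter is 0.54 by library size alone. Fasn, the fatty acid synthase, had 0.44 (SE 0.53, adjusted p = 0.58). Missing the test does not show that these 3 genes were unaffected.

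**Figure D2:**
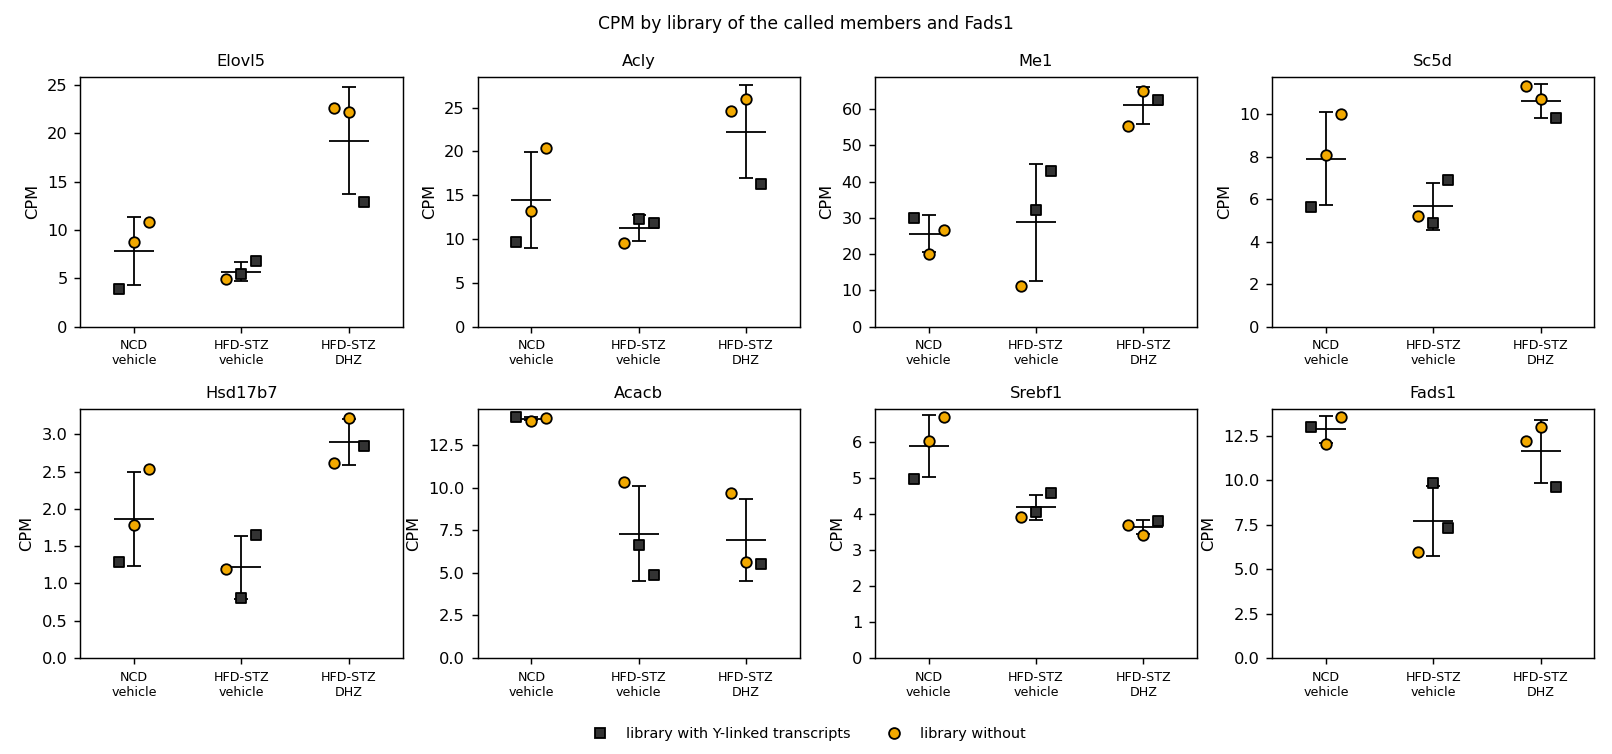
CPM in each library (y axis, from 0) by group for the 7 genes called in any comparison and for Fads1. Squares are libraries with Y-linked transcripts, circles those without, and the bar with whiskers is the mean ± SD of 3 libraries. For Elovl5 the vehicle libraries lie between 4.88 and 6.82 CPM and the DHZ libraries between 12.9 and 22.7.

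These calls rest on few libraries. Without HFD-STZ DHZ replicate 1, or without replicate 2, Elovl5 was the 1 gene of the 34 still called (log2 fold change 1.63 and 1.64). Without HFD-STZ vehicle replicate 1 the calls were Elovl5 (1.62), with Insig1 (−1.07) and Nsdhl (−0.89) lower. Elovl5 was called in every alternative that was run.

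Of the regulators 0 were called. Srebf1 had 3.90, 4.05 and 4.58 CPM under vehicle and 3.67, 3.41 and 3.81 under DHZ, the 1 gene of the 34 whose DHZ libraries all lay below the vehicle libraries. Its estimate was −0.21 (SE 0.22, adjusted p = 0.51), which is 0.58 by library size alone. Srebf2 had 0.10 (SE 0.19), Stard4, a carrier of cholesterol between membranes, 0.15 (SE 0.23), and Insig1, itself a target of SREBP, −0.66 (SE 0.41). Their adjusted p-values were 0.73, 0.67 and 0.27.

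The promoters of the genes with the lowest p in this comparison are shown because the branches share known activators, together with Hmgcs1, which was added after the search as the 1 gene with a full sterol element. Each line is the 250 bases before the gene's start from RefSeq on build GRCm38.p6, 5′ to 3′ on the gene's strand, while the count table is on GRCm39. Capitals mark matches on either strand to TCACNCCAC or CACCCCAC (sterol regulatory element, the first can overlap the second), CCAAT (read as ATTGG on the other strand), GGGCGG (GC box, read as CCGCCC) and CACGTG (E-box). Hmgcs1 lies at chr13:119690101-119690350 on the plus strand, Acat2 at chr17:12960726-12960975 on the minus strand, Hsd17b7 at chr1:169969206-169969455 on the minus strand and Sc5d at chr9:42264301-42264550 on the minus strand. Of the fatty acid genes, Acly lies at chr11:100528001-100528250 on the minus strand, Me1 at chr9:86695915-86696164 on the minus strand and Elovl5 at chr9:77917115-77917364 on the plus strand. For Me1 the first of the listed starts was taken.
Hmgcs1: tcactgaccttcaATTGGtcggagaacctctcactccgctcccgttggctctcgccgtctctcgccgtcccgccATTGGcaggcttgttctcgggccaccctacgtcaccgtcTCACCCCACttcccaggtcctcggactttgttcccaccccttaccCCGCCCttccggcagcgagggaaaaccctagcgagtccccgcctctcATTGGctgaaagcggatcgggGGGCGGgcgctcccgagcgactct
Acat2: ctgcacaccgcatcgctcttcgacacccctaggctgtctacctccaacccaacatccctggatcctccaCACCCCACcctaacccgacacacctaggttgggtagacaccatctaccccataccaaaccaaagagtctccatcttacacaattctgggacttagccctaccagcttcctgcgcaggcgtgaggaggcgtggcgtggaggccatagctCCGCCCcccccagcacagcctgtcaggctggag
Hsd17b7: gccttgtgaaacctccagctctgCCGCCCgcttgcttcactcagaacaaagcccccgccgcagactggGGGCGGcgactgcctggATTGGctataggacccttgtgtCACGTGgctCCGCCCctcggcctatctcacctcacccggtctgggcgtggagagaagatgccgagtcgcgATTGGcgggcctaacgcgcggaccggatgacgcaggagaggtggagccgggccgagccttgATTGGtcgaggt
Sc5d: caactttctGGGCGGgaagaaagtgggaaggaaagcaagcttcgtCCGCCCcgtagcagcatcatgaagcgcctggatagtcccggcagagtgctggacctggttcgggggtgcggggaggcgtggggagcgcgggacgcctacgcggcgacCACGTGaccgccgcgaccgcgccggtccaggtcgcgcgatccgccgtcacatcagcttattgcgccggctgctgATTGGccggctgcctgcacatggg
Acly: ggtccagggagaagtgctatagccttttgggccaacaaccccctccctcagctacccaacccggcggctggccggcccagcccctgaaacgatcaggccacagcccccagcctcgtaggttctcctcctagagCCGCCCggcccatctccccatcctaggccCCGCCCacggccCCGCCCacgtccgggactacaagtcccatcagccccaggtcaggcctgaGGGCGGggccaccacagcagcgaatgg
Me1: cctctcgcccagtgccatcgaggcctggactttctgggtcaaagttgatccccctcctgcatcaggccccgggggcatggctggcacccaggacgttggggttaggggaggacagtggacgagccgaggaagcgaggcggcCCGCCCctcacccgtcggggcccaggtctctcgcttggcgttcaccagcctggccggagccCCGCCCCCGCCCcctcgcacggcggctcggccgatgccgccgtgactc
Elovl5: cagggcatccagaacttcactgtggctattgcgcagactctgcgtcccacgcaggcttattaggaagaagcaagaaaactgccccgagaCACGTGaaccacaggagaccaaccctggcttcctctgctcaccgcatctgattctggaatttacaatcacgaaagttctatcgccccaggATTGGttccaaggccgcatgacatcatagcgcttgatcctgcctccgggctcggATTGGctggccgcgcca

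In Hmgcs1 the sterol element begins 137 bases before the start and lies between CCAAT boxes at 176 and 45 bases, with GC boxes at 92 and 24 bases. Hsd17b7 has 3 CCAAT boxes and 3 GC boxes, and both Hsd17b7 and Sc5d carry an E-box, at 143 and 98 bases. Acly and Me1 hold GC boxes (4 and 3) and no CCAAT box, while Elovl5 has CCAAT boxes at 71 and 17 bases and no GC box. Of 15 sterol genes with an entry, 13 held CCAAT and 14 the GC box, against 4 and 3 of 9 fatty acid genes and 33.8% and 32.7% of 32851 mouse promoters of that length. TCACNCCAC was found in 1 of the 15 and 0 of the 9, beside 1.05% of all promoters, and CACCCCAC in 2 and 0, beside 2.58%. The E-box was found in 2 and 1, beside 6.02%. A match is a stretch of letters in this window and says nothing of binding. Sqle, Fdft1, Fdps, Scd1, Scd2, Fads1 and Stard4 are not among the sequences used.

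The levels of Scd1, Elovl6 and Cyp51 separated the libraries by the Y-linked transcripts. This was asked after the values were seen, by testing the Y-linked term in a fit that also holds the group. In the libraries with Y-linked transcripts Scd1 stood at 28.4 CPM (NCD vehicle), 28.9 and 37.4 (HFD-STZ vehicle) and 16.1 (HFD-STZ DHZ). In the others it stood at 158 and 222 (NCD vehicle), 79.2 (HFD-STZ vehicle) and 223 and 248 (HFD-STZ DHZ). The sides did not overlap, and Scd1 was lower with Y-linked transcripts by −2.64 on the log2 scale (SE 0.41, adjusted p = 0.0026, edgeR quasi-likelihood test). Elovl6 had 25.9, 17.9, 16.0 and 11.6 CPM with Y-linked transcripts and 79.8, 86.7, 63.5, 36.0 and 44.2 without, in the same order of groups. It too separated the sides, by −1.79 (SE 0.17, adjusted p = 3.6e-05).

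Cyp51 was the 1 sterol gene with this pattern. It had 35.1, 25.5, 26.2 and 18.1 CPM with Y-linked transcripts and 81.3, 83.6, 49.1, 100.2 and 96.8 without, a difference of −1.51 (SE 0.26, adjusted p = 0.0047). Cyp51 overlaps Akap9 on the other strand, which had 0.67 for this term (adjusted p = 0.21). Hmgcs1 lay the other way, at 172, 258, 291 and 185 CPM with Y-linked transcripts and 130, 124, 99.5, 144 and 123 without. Its sides did not overlap, with 0.78 (SE 0.23), and it did not pass the test (adjusted p = 0.095). By library size alone, which moves the median of all genes for this term to −0.77, Hmgcs1 had 0.04, while Scd1, Elovl6 and Cyp51 had −3.42, −2.58 and −2.32. In all, 3 of the 34 genes were called for this term, 1 of 18 sterol and 2 of 12 fatty acid genes, beside 3.43% of all genes tested. Mitochondrial shares moved with the sides in part, at 51.5%, 60.4%, 52.4% and 46.0% in the libraries with Y-linked transcripts against 39.2% to 46.3% in those without. Scaling factors were 0.721, 0.327, 0.715 and 1.25 against 1.22 to 1.63. In HFD-STZ DHZ, replicate 3, with Y-linked transcripts, had 46.0% and 1.25 beside 46.3% and 1.23 in replicate 1. The part of mitochondrial shares and scaling factors in these results was not tested. Scd1, Elovl6 and Cyp51 were called again in each of the 9 fits that left out 1 library.

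**Figure D3:**
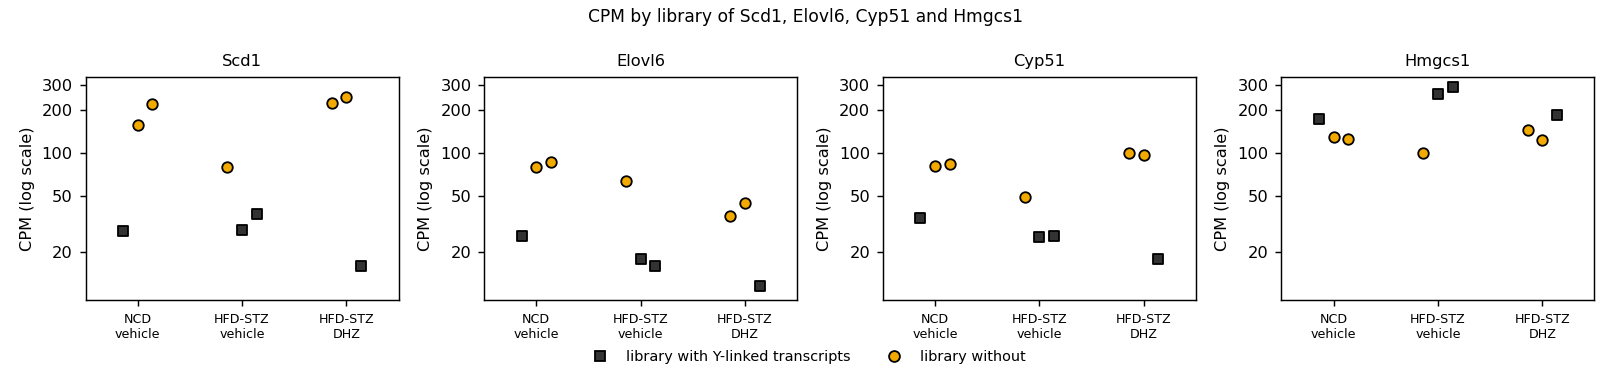
CPM in each library (log scale) by group for Scd1, Elovl6, Cyp51 and Hmgcs1. Squares are libraries with Y-linked transcripts and circles those without; within every group the squares lie below the circles for the first 3 genes and above them for Hmgcs1.

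The sides are unevenly spread over the groups, with Y-linked transcripts in 1 of 3 libraries of NCD vehicle, 2 of HFD-STZ vehicle and 1 of HFD-STZ DHZ. With the Y-linked term in the fit, the treatment estimate of Scd1 went from 1.74 (SE 1.04) to 0.23 (SE 0.47) and that of Cyp51 from 1.09 (SE 0.59) to 0.35 (SE 0.30). Elovl6 went from −0.09 to −0.59 (SE 0.19) and was then called lower (adjusted p = 0.046). Elovl5 kept 1.46 (adjusted p = 0.0078), Hsd17b7 1.10 (0.040) and Sc5d 0.81 (0.035), while Acly, at 0.82, did not pass (0.051). Me1 (1.45, adjusted p = 0.012), Idi1, the isopentenyl isomerase (0.86, 0.039), and Acat2 (0.66, 0.033) were called higher in that fit. Within the libraries without Y-linked transcripts Elovl5 went from 4.88 CPM in 1 vehicle library to 22.7 and 22.2 under DHZ, and within those with them from 5.39 and 6.82 to 12.9.

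The effect of the diabetic model was measured as HFD-STZ vehicle minus NCD vehicle. It shares the HFD-STZ vehicle libraries with the treatment comparison, so opposite signs in the 2 are not independent. None of the 34 genes was called, where 0.0524% of all genes were (9 of 17179, edgeR). Estimates were lower for 28 and higher for 6, with a median of −0.48 (sterol −0.44, fatty acid −0.78) beside −0.003 over all genes. With a Y-linked term the branch medians were −0.40 and −0.47. Without HFD-STZ vehicle replicate 2 they were −0.21 and −0.65, and without replicate 3 −0.68 and −0.72. A p below 0.05 before adjustment was found for 8 of the 34 genes, beside 1276 of all 17179. DESeq2 called 1 of the 34 (Thrsp), beside 126 of all genes. All 3 model libraries lay below all 3 NCD libraries for 8 of 34, beside 6.56% of all genes. These are 3 sterol genes (Fdft1, Mvk and Pmvk), 4 fatty acid genes (Acacb, Fads1, Fads2 and Thrsp) and Srebf1. By library size alone the median of all genes is −0.74 and all 34 estimates are negative.

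In the sterol branch Fdft1 had 7.22, 9.39 and 9.87 CPM in NCD vehicle and 5.47, 4.45 and 5.78 in HFD-STZ vehicle, with −0.74 (SE 0.26, adjusted p = 0.55). Mvk had 1.12, 1.58 and 1.53 against 0.650, 0.135 and 1.04 CPM, with −1.04 (SE 0.47, adjusted p = 0.66), and its lowest value is 1 count. Both genes were separated between the groups with small margins. Msmo1 had 4.76, 7.77 and 7.36 against 3.36, 5.26 and 5.18, which overlap (−0.54, SE 0.27, adjusted p = 0.70). Nsdhl, at 10.5, 11.9 and 11.0 against 7.70, 24.7 and 22.2 CPM, had 0.70 (SE 0.35, adjusted p = 0.70) and turns to −0.34 by library size alone. Its high values were in the HFD-STZ vehicle libraries with Y-linked transcripts.

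In the fatty acid branch Fads1 was the gene with the lowest p. It had 13.0, 12.1 and 13.6 CPM in NCD vehicle against 5.96, 9.85 and 7.34, with −0.76 (SE 0.22, adjusted p = 0.40). Acacb, the carboxylase at the mitochondrial surface whose malonyl-CoA restrains fatty acid oxidation, had 14.1, 13.9 and 14.1 against 10.3, 6.61 and 4.90, with −0.94 (SE 0.30, adjusted p = 0.46). The NCD libraries were nearly equal and the model libraries spread widely. Fasn had 3.53, 9.02 and 17.5 CPM against 4.55, 1.21 and 4.70 (−1.46, SE 0.54, adjusted p = 0.59), which overlap. Thrsp, a nuclear lipogenic protein of fat and liver, had 0.749, 0.914 and 6.47 CPM against 0.271, 0 and 0.361, that is 14, 22 and 253 counts against 5, 0 and 9. Its estimate was −3.40 (SE 1.10, adjusted p = 0.52). Without NCD vehicle replicate 3 the estimates were −0.78 for Fasn and −1.69 for Thrsp.

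The high Fasn and Thrsp values of NCD vehicle replicate 3 came with adipocyte markers. The 12 markers summed to 24.8 to 86.1 CPM in NCD vehicle, with 86.1 in replicate 3, to 15.1 to 30.4 in HFD-STZ vehicle and to 28.5 to 97.7 in HFD-STZ DHZ, with 97.7 in replicate 1. Fabp4 alone had 45.09 CPM in NCD vehicle replicate 3, and 68.55 and 24.46 in HFD-STZ DHZ replicates 1 and 2. Lipe was instead highest in NCD vehicle replicate 1, at 8.39 CPM against 5.75 in replicate 3. Adiponectin (Adipoq) was at 1.84 CPM in NCD vehicle replicate 3, at 4.41, 0 and 2.65 in HFD-STZ DHZ, and at most 0.166 elsewhere. Leptin (Lep), which did not pass the filter, had 0, 0 and 3 counts in NCD vehicle and 20, 0 and 7 under DHZ. Its count was 0 in all 3 HFD-STZ vehicle libraries. Of 9 markers tested, 0 were called in the model comparison and 1 (Cidec) in the treatment comparison. Cidec had 2.06, 0.602 and 0.436 CPM in HFD-STZ DHZ, at most 0.0542 in HFD-STZ vehicle and 0.971 in NCD vehicle replicate 3. The part of adipocytes in any of these values was not tested.

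**Figure D4:**
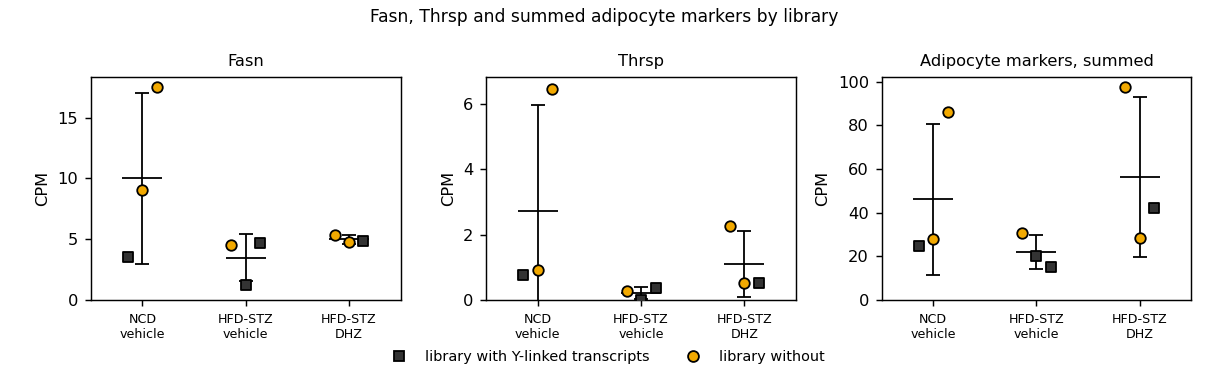
CPM in each library (y axis, from 0) by group for Fasn, Thrsp and the sum of 12 adipocyte markers, with squares for libraries with Y-linked transcripts, circles for those without, and mean ± SD of 3 libraries (whiskers end at 0). NCD vehicle replicate 3 is highest in Fasn (17.5) and Thrsp (6.47) and has 86.1 CPM of the markers, and HFD-STZ DHZ replicate 1 has 97.7 CPM of the markers with 5.38 of Fasn. Of these 2 sums Fabp4 alone makes 45.09 and 68.55 CPM.

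Treated kidneys were also set against healthy ones (HFD-STZ DHZ minus NCD vehicle), a comparison that shares libraries with both comparisons above. Elovl5 and Me1 were higher and Acacb and Srebf1 lower, and 0 of 18 sterol genes were called. All genes were called higher in 6.31% and lower in 7.38%, near the 2 of 34 in each direction. The median was −0.02 over the 34 genes, −0.002 in the sterol branch and −0.12 in the fatty acid branch, beside 0.006 over all genes.

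Elovl5 had 3.90, 8.77 and 10.8 CPM in NCD vehicle, below the 12.9 to 22.7 of the DHZ libraries, a difference of 1.29 (SE 0.34, adjusted p = 0.029). Me1 had 30.1, 20.0 and 26.6 CPM in NCD vehicle, below the 55.4 to 65.1 under DHZ, with 1.26 (SE 0.38, adjusted p = 0.044). Both thus stood above the healthy level. Acacb, at 9.70, 5.61 and 5.50 CPM under DHZ against 13.9 to 14.1 in NCD vehicle, was lower by −1.02 (SE 0.29, adjusted p = 0.038). Srebf1, at 3.67, 3.41 and 3.81 against 4.97, 6.02 and 6.67, was lower by −0.70 (SE 0.21, adjusted p = 0.046). Its model estimate was −0.50 and its treatment estimate −0.21, neither called. By contrast Sc5d, Hsd17b7 and Acly had 0.42, 0.62 and 0.62 here (adjusted p = 0.24, 0.21 and 0.15), with groups that overlap for Sc5d at 5.61, 8.10 and 9.99 CPM in NCD vehicle and for Acly at 9.68, 13.2 and 20.4. Hsd17b7 had 1.28, 1.79 and 2.53 CPM there, just below its 2.62 to 3.22 under DHZ. All 4 calls were lost without NCD vehicle replicate 1 or 2 or HFD-STZ DHZ replicate 1 or 2, and by library size alone. The estimates there were 0.98 to 1.38 for Elovl5, 1.11 to 1.39 for Me1, −1.33 to −0.88 for Acacb and −0.80 to −0.65 for Srebf1.

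The branches were compared by their mean log2(CPM + 0.5) per library, with no test, since the genes were chosen with earlier results known. The sterol branch had 2.89 ± 0.13, 2.55 ± 0.30 and 2.89 ± 0.14 in healthy, model and treated kidneys (SD, n = 3), and the fatty acid branch 3.96 ± 0.58, 3.19 ± 0.22 and 3.92 ± 0.46. The mean of the sterol branch less that of the fatty acid branch was −0.62, −1.05 and −1.55 in the NCD libraries, −0.94, −0.56 and −0.40 in HFD-STZ vehicle and −1.28, −1.14 and −0.66 in HFD-STZ DHZ. The ranges overlap between all groups. The difference went from −1.07 ± 0.47 to −0.63 ± 0.27 and −1.03 ± 0.32, a shift of 0.44 with the model and −0.40 with the compound that is near the spread of the libraries. The largest gap between branches within each group was in a library without Y-linked transcripts. Without Thrsp and Scd1 the shifts were 0.30 and −0.33.

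**Figure D5:**
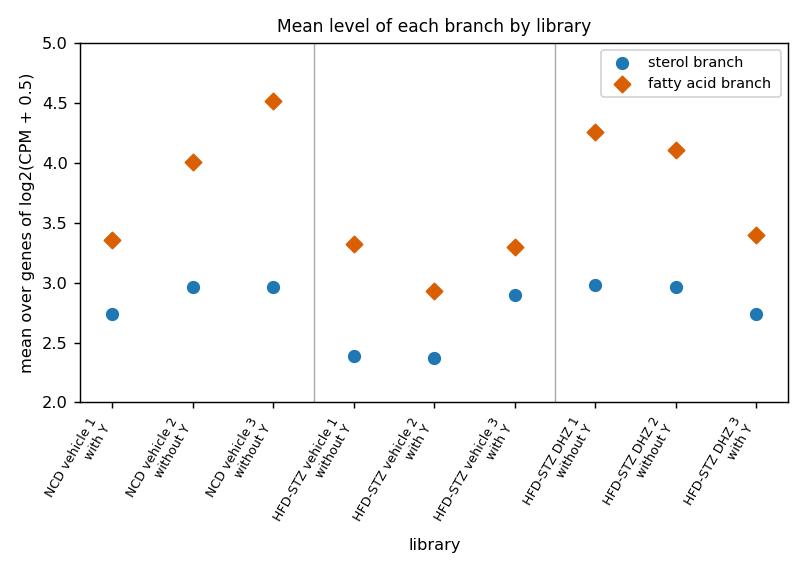
Mean over genes of log2(CPM + 0.5) in each library (y axis) for the sterol branch (circles, 18 genes) and the fatty acid branch (diamonds, 12 genes), with libraries on the x axis grouped by lines and marked by Y-linked transcripts. The fatty acid branch spans 2.93 to 4.51 and the sterol branch 2.37 to 2.98.

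Other genes of the pathways gave context from lists of 22 sterol handling genes and 29 fatty acid and triglyceride genes, of which 22 and 27 were tested. In the model comparison 0 of either were called. In the treatment comparison 4 sterol handling genes rose and 0 fell, where 10.0% and 12.0% of all genes did. Abca1, the exporter of cholesterol, went from 5.64, 4.59 and 2.85 CPM to 15.3, 11.9 and 15.0 (log2 fold change 1.70, SE 0.27, adjusted p = 0.0039). Insig2, a partner of Insig1 in holding SREBP precursors, went from 4.01, 2.97 and 3.85 to 11.1, 10.4 and 7.85 (1.42, SE 0.25, adjusted p = 0.0052). The groups did not overlap for either gene. The estimate of Insig1 given above was −0.66 and not called. Its groups overlapped, at 6.505, 29.5 and 13.3 CPM under vehicle and 12.9, 8.28 and 9.36 under DHZ. Npc2, a lysosomal cholesterol carrier, had 0.76 (adjusted p = 0.017) and the oxysterol-binding protein Osbp 0.85 (adjusted p = 0.046). The median of the list was 0.11.

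Of the other fatty acid genes 6 of 27 rose and 1 fell, beside the same 10.0% and 12.0%, with a median of 0.28. Acsl4, the acyl-CoA synthetase with a preference for arachidonate, went from 6.99, 5.39 and 6.78 CPM to 24.2, 16.7 and 15.3 (1.54, SE 0.22, adjusted p = 0.0031). Hsd17b12 and Hacd3, enzymes of the elongation cycle that Elovl5 opens, had 1.34 (SE 0.22, adjusted p = 0.0044) and 0.97 (SE 0.21, adjusted p = 0.010). Tecr and Hacd2 of the same cycle, named after their values were seen, had −0.63 (SE 0.28, adjusted p = 0.12) and −0.45 (SE 0.37, adjusted p = 0.40). Neither was called. Idh1, which like Me1 makes cytosolic NADPH, had 1.21 (SE 0.26, adjusted p = 0.0096). Acsl5 (1.26) and Mlx (1.00) rose and Mlxipl, the carbohydrate-responsive partner of Mlx, fell by 0.94 on the log2 scale (adjusted p = 0.044), and these 3 are named after their values were seen. Against NCD vehicle, Acsl4, Hsd17b12, Idh1, Hacd3 and Acsl5 were called higher too (0.91 to 1.55) and Mlxipl lower (−1.20). Among sterol handling genes Insig2 (1.10) and Abca1 (0.85) were higher in that comparison, and Cyp27a1, a sterol hydroxylase (adjusted p = 0.040), was lower.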

How the data were processed

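Messenger RNA of whole kidney was sequenced in 9 libraries, prepared with a stranded kit from poly(A)-captured RNA per the labels' protocols. The authors deposited whole-number raw counts for 55359 Ensembl genes, of which 94.1% matched a symbol, with 0 other per-sample columns. The build was GRCm39 (mm39) and the tools were STAR, Trim Galore and FastQC, per the submitters' processing notes. The sources used here name no versions, annotation or counting program and no settings for strand or multiple mapping, so overlapping genes (4 of the 34 on the same strand, 8 on the other) cannot be separated. Groups come from the sample titles, since the treatment field names the compound in all libraries. The batch dates differ between all libraries and follow the groups. Batch and group therefore cannot be told apart. Nothing in the labels ties each library to an animal of its own, and p-values then cover only the spread between these samples.

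Testing used edgeR 4.0.16 in R 4.3.3: filterByExpr (17179 genes), scaling by the trimmed mean of M values, and 1 robust quasi-likelihood fit of all libraries with group as the only term (6 residual degrees of freedom), tested with Benjamini-Hochberg adjustment over all genes and called below 0.05. All tests are two-sided. The procedure was run on simulated counts with the same spread between libraries for every gene and without Y-linked or batch differences. That run does not show how the tests behave where these features are present. Exon lengths and overlaps were read from a GRCm38 annotation and promoters from RefSeq GRCm38.p6. Alternatives were DESeq2 1.42.0, limma-voom (limma 3.58.1), library size only, no mitochondrial genes, no filter, the groups compared alone, a replicate block, a Y-linked term and leaving out each library. The 34 genes and all lists were chosen with earlier results of these data known. Values in every library are given for genes called in any comparison and for the 4 of each branch with the lowest p in the model comparison. Up to 4 called genes of each other list are named per comparison, lowest p first, and some that meet this rule are not reported here. Other genes shown in full (such as Scd2 and Acat2 in the treatment comparison, and the 4 genes set beside the Y-linked transcripts) were chosen after their values were seen.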

Additional observations from a re-analysis of the deposited data

How the results depend on the processing

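In the treatment comparison Elovl5 was called higher under every alternative run. Of the values of the named genes under the alternatives, 405 kept direction and side of the threshold, 49 lost their call, 11 gained a call and 11 changed sign. Those that changed sign were uncalled in every case. They are Me1 in the model comparison (−0.034 by limma-voom, −0.76 by library size only, −0.17 with the Y-linked term, −0.26 to 0.57 when a library was left out), Nsdhl there (−0.34 by library size only), Srebf1 in the treatment comparison (0.58 by library size only) and Acacb there (0.54 by library size only, 0.015 without the filter on low counts, and −0.38 to 0.28 when a library was left out). The shift between branches kept its sign throughout (−0.58 to −0.27 with the compound, 0.20 to 0.67 with the model).

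Of the 34 genes, the model comparison called 1 by DESeq2, 1 by library size only and 6 without the filter. The treatment comparison called 7 by DESeq2, 10 without the filter, 7 with the Y-linked term (6 higher, Elovl6 lower) and 1 to 6 when a library was left out. Over all genes that comparison called 4707 of 17179 by DESeq2 and 4633 of 32021 without the filter. Its count over all genes with the Y-linked term is not reported here, so the 7 has no share beside it. DHZ against healthy called 0 by library size only and 0 to 4 when a library was left out. The Y-linked term called 8 by library size only, 8 without the filter and 3 to 4 when a library was left out. Over all genes, DESeq2 called 126 in the model comparison and 3530 in DHZ against healthy, and library size only called 29, 888 (93.7% higher, against 45.5%), 36 and, for the Y-linked term, 1355. Without the filter 425 were called in the model comparison and 1264 for the Y-linked term. The fits of the groups compared alone called 3 in the model comparison and 3981 in DHZ against healthy, and the Y-linked term in the fit gave 42 and 3617. Leaving out a library gave 2 to 28, 1149 to 4086, 112 to 3706 and, for the Y-linked term, 289 to 928. By library size only the Y-linked calls were 81 higher and 1274 lower.

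Replicate numbers do not pair the libraries: deviations of same-numbered libraries correlated between −0.60 and 0.36. With a replicate block 2, 2159 and 772 genes were called in the 3 comparisons, with 0, 3 and 1 of the 34 genes (Hsd17b7, Sc5d and Elovl5 with DHZ, Acacb lower against healthy). The Y-linked term then called 6 of the 34, and its count over all genes is not reported here, so no share can be set beside it. The causes of these shifts were not tested. Depth limits Fdps, Mvd, Mvk, Pmvk, Hsd17b7, Tm7sf2, Fasn and Thrsp, each with 0 to 9 counts in HFD-STZ vehicle replicate 2.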

Other observations

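The Y-linked transcripts also went with other genes of the pathways, in the fit that holds the group and a Y-linked term (edgeR quasi-likelihood test, asked after the values were seen). Elovl2, an elongase of very long polyunsaturated fatty acids, lay at 0.270 to 1.95 CPM in the 4 libraries with Y-linked transcripts and at 5.10 to 17.7 in the 5 without, a log2 difference of −2.90 (SE 0.25, adjusted p = 1.9e-05). Acsl1, an acyl-CoA synthetase, lay at 25.4 to 41.5 against 71.9 to 98.3 CPM (−1.18, SE 0.18, adjusted p = 0.0024). Neither range overlapped. Pgd, which makes NADPH in the pentose phosphate pathway, lay the other way, at 21.0 to 32.9 against 12.5 to 16.5 CPM (0.79, SE 0.19, adjusted p = 0.039). By library size alone Pgd had 0.07, beside −0.77 for the median of all genes. Apoe, an apolipoprotein that carries cholesterol, was lower with Y-linked transcripts, at 20.5 to 47.6 against 97.1 to 134.9 CPM (−1.73, SE 0.22, adjusted p = 4.7e-04).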
